A study of Homo sapiens with 56 samples.

Results

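KLHL5, ZBED2, CARHSP1, GAD1, EEIG2, SDCBP, ZNF652, GYG1, DAZAP2 and TRAM1 are 10 of 19775 genes measured on 56 Affymetrix arrays, and they were picked because their messenger RNA signal differed the same way in several lines when miR-155 was inhibited. That choice used the array signals of cobomarsen and untreated wells, so the values of these comparisons are given as a description, with no test of the 10 genes. The cells were 4 established human lines from cutaneous T-cell lymphoma (CTCL), a cancer of T cells that home to the skin. The virus HTLV-1 is carried by HuT102 and MJ, while MyLa was derived from mycosis fungoides and HuT78 from Sézary syndrome. Cells of each line were grown with cobomarsen (MRG-106), an oligonucleotide inhibitor of miR-155, or left untreated.

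The groups were HuT102 with cobomarsen and HuT102 untreated, MJ with cobomarsen and MJ untreated, and MyLa with cobomarsen and MyLa untreated, each at day 8 and at day 4, and HuT78 with cobomarsen and HuT78 untreated at day 8. Each of the 14 groups held 4 arrays of total RNA. No array of an oligonucleotide without the miR-155 target was analysed here, so effects shared by oligonucleotides in general and those of inhibiting miR-155 cannot be told apart. At 96 hours every well was diluted by the factor chosen for the untreated wells. Cell density at harvest was not analysed here. Whether the arrays of a group came from separate cultures is not given in the labels, so every p-value measures only the spread between these samples, which may be technical. Each line is 1 cell population, so differences between lines have no replicate beyond the arrays.

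MicroRNAs are short RNAs that guide a silencing complex to messenger RNAs with a match to the seed, bases 2 to 8 of the mature strand, and thereby lower the level or translation of those messages. MiR-155 is made from the host transcript MIR155HG, is induced in activated lymphocytes and is abundant in many lymphomas. An inhibitor that binds the mature strand blocks this silencing. The 2 mature strands of the human precursor are shown because the first is the strand that miR-155 inhibitors are directed against. They are RNA as listed by RefSeq on build GRCh38.p14, 5′ to 3′, with the seed in capitals, and they lie on the plus strand at chr21:25573983-25574006 and chr21:25574022-25574043, inside the host gene.
hsa-miR-155-5p: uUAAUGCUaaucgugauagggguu
hsa-miR-155-3p: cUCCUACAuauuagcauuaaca
The seeds of the strands differ. Seed matches in the messages of the 10 genes were not analysed here.

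The 10 genes have unrelated products. KLHL5 encodes a BTB-kelch protein, a family whose members bring substrates to cullin 3 ubiquitin ligases. ZBED2 encodes a zinc finger protein of the BED type that represses transcription and has been described as an antagonist of interferon regulatory factors in pancreatic cancer cells. ZNF652 encodes a zinc finger repressor that recruits CBFA2T3. CARHSP1 is a cold-shock-domain protein that binds RNA, and DAZAP2 is a small proline-rich adaptor first found as a partner of the germ cell RNA-binding protein DAZ. GAD1 is the glutamate decarboxylase that makes GABA, and GYG1 is glycogenin, the protein primer of glycogen. SDCBP is syntenin-1, a PDZ adaptor that binds syndecans and takes part in exosome formation, TRAM1 is a membrane protein of the endoplasmic reticulum translocon, and EEIG2 is the paralogue of the early estrogen-induced gene EEIG1.

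The values are MAS5 signal, a microarray intensity on a linear scale that the submitters computed and scaled to a common trimmed mean. The median signal of all values was 74.0, and a group mean under it is treated as close to background and given as a signal without a fold. Changes are differences of mean log2(signal + 16), which understate the change of low signals, with a standard error (SE) that pools the spread of a gene over all 14 groups. Each fold is such a change taken off the log2 scale, so it is not the ratio of the printed mean signals. Array medians ran from 56.4 to 91.7, and within a group log2 values correlated at 0.957 to 0.980 between arrays. The upper quartile of signal was 380.2, 385 and 382 in cobomarsen arrays 2, 3 and 4 of HuT78, against 431 in cobomarsen array 1 and 422 to 443 in its untreated arrays, so these 3 arrays stand apart. In HuT102 at day 8 and in MJ on both days the upper quartile was higher with cobomarsen than in untreated wells without overlap, by 25.9, 18.7 at day 8 and 19.5 at day 4, and the part of this in the results was not tested. The ratio of 3′ to 5′ probe sets, a sign of RNA quality, was 0.837 to 0.990 for GAPDH and 0.990 to 1.29 for ACTB over all arrays. In MJ at day 8 the GAPDH ratio averaged 0.930 with cobomarsen and 0.911 in untreated wells without overlap, and its part in the MJ results was not tested. The groups overlapped in this ratio in the other 6 comparisons and in the ACTB ratio in all 7. T cell markers summed to 25666 to 40778 per group, against 246 to 644 for 4 myeloid markers and 359 to 736 for 3 B cell markers. The myeloid markers CD14 and LYZ lay under the median signal in all 14 groups, whereas CSF1R reached it in 12 and ITGAM in 13, and of the B cell markers CD79A reached it in 14, MS4A1 in 4 and CD79B in 3. Of the 8 T cell markers, 4 lay above it in every group (CD3D, CD3E, CD3G and PTPRC) while CD2, CD4, LCK and TRAT1 did so in 12, 11, 10 and 6 of the 14 groups. The 4 epithelial markers summed to 195 to 10219 and the 4 fibroblast markers to 78.8 to 5325, and the part of these markers in the results was not tested.

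A host transcript probe set that carries the symbols MIR155 and MIR155HG had mean signals between 11499 and 29906 in every group of HuT102, MJ and MyLa. In HuT78 its 4 signals were 31.4, 55.2, 47.9 and 10.01 with cobomarsen and 34.1, 26.5, 38.1 and 20.8 in untreated wells, all under the median signal of all values. The host transcript was therefore close to background in HuT78.

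**Figure D1:**
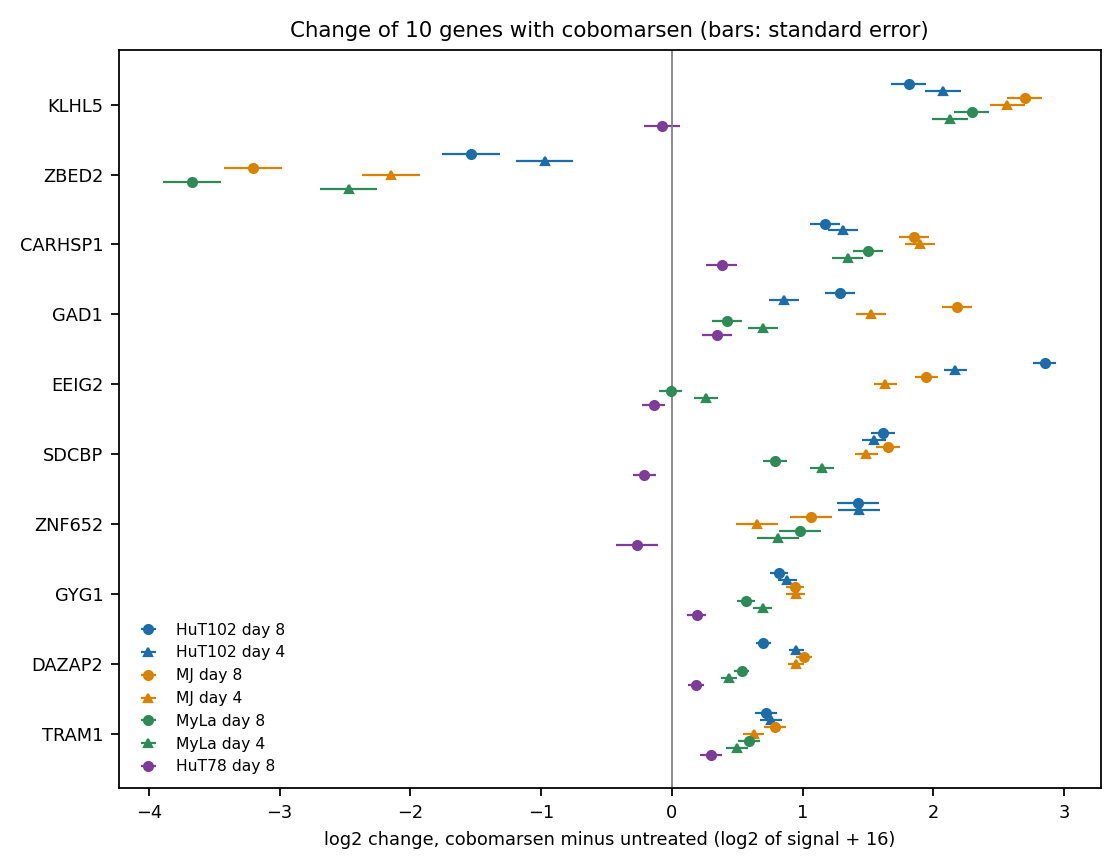
Each point is the log2 change of a gene, cobomarsen minus untreated, in 1 line and day, with its standard error as a bar, from 4 arrays in each group. Apart from ZBED2, which lies left of 0 in HuT102, MJ and MyLa, the points of these 3 lines lie right of 0 except EEIG2 in MyLa at day 8, and those of HuT78 (purple) lie between -0.27 and 0.38; ZBED2 in HuT78 is not drawn because both group means were under 74.0.

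KLHL5 was higher with cobomarsen in all 6 comparisons of HuT102, MJ and MyLa, by a log2 change of 1.81 to 2.70. Its signal on the 4 arrays of MJ at day 8 was 1487, 1437, 1318 and 1642 with cobomarsen, against 204, 241, 189 and 219.6 in untreated wells. In HuT102 at day 8 it was 775, 608, 642 and 747 with cobomarsen, against 141, 217, 178 and 215 in untreated wells. MyLa at day 8 held 823, 874, 919 and 846 with cobomarsen, against 144, 176, 144 and 197 in untreated wells. Every treated array of these lines lay far above every untreated array of the same line, and the treated levels were highest in MJ. The log2 changes gave a 6.48-fold higher level in MJ (2.70 ± 0.14, SE), 4.90-fold in MyLa (2.29 ± 0.14) and 3.51-fold in HuT102 (1.81 ± 0.14).

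At day 4 KLHL5 was already as far apart. Its mean was 1498 ± 191 with cobomarsen and 239.9 ± 34.9 in untreated wells in MJ (SD, n = 4 each). The corresponding means were 907 ± 174 and 202 ± 24.4 in HuT102, and 779 ± 73.8 and 168 ± 31.9 in MyLa. The day 8 effect minus the day 4 effect was -0.26 in HuT102, 0.13 in MJ and 0.17 in MyLa (SE 0.19 each). HuT78 differed from the other lines in its level: cobomarsen arrays held 2299, 2391, 1586 and 2359, against 2319, 2305, 1961 and 2421 in untreated arrays. These groups overlapped, and even the treated arrays of MJ stayed below all untreated arrays of HuT78.

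**Figure D2:**
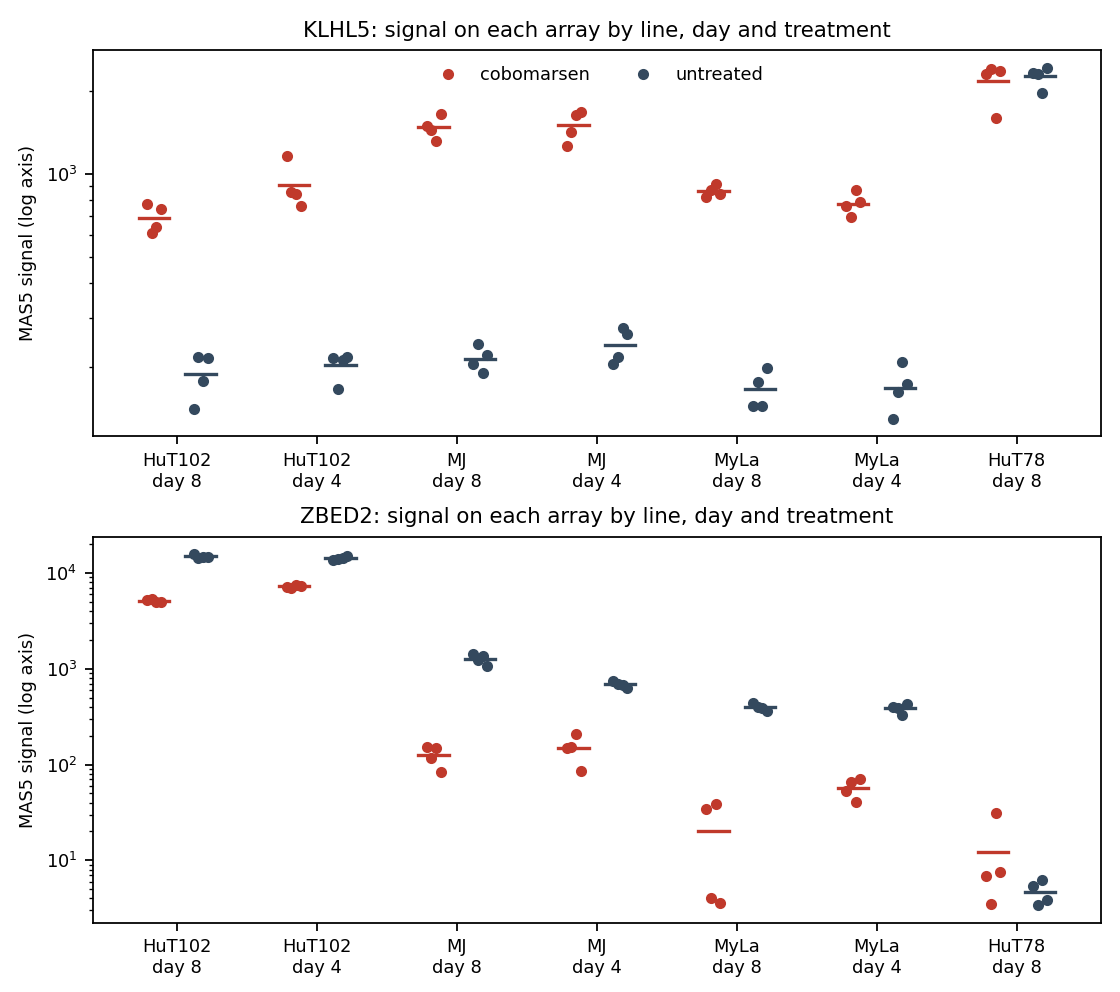
Points are the MAS5 signal of single arrays on a log axis and short lines are group means, for KLHL5 (top) and ZBED2 (bottom), with cobomarsen (red) left of untreated (blue) in each line and day. In HuT102, MJ and MyLa the treated and untreated arrays do not overlap for either gene, while in HuT78 KLHL5 is near 2159 with cobomarsen and 2252 in untreated wells and ZBED2 is close to background.

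ZBED2 was the one gene of the 10 that was lower with cobomarsen in HuT102, MJ and MyLa without overlap. In MJ at day 8 its signal was 153, 117, 151 and 84.3 with cobomarsen, against 1439.8, 1224, 1359 and 1080.0 in untreated wells. MyLa at day 8 had 34.6, 4.06, 38.9 and 3.57 with cobomarsen, against 441, 396, 387 and 359 in untreated wells. HuT102 at day 8 had 5246, 5367, 4984 and 5002 with cobomarsen, against 15800.0, 14420.0, 14836 and 14796 in untreated wells. No treated array reached the lowest untreated array of its line, and in MyLa the treated arrays lay under the median signal of all values. By the log2 change, the untreated level was 9.22-fold the cobomarsen level in MJ (-3.21 ± 0.22) and 2.90-fold in HuT102 (-1.54 ± 0.22). No fold is given for MyLa, whose treated mean of 20.3 ± 19.1 was close to background.

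The estimated difference in ZBED2 was smaller at day 4 in each of these lines, with limits in HuT102 and MyLa given below. HuT102 had 7181, 7013, 7513 and 7389 with cobomarsen at day 4, against 13750.1, 13889, 14521 and 15075 in untreated wells, a log2 change of -0.97 ± 0.22. MJ had 150.0, 153, 208 and 85.2 with cobomarsen, against 748, 696, 673 and 635 in untreated wells (-2.15 ± 0.22). MyLa had 53.4, 65.9, 40.2 and 69.9 with cobomarsen, against 403, 389, 329 and 429 in untreated wells. The treated arrays were again all below the untreated ones. The day 8 effect minus the day 4 effect was -0.56 in HuT102, -1.06 in MJ and -1.20 in MyLa (SE 0.31 each). The HuT102 value of -0.56 was not tested, and its SE pools groups close to background in other lines. In HuT102 the treated means were 5150 ± 188 at day 8 and 7274 ± 221 at day 4 (SD). The untreated means there were 14963 ± 589 and 14309 ± 611. In MyLa the treated means were close to background, 20.3 at day 8 and 57.3 at day 4, and the untreated means were 396 and 387. In MJ the treated means of both days were near each other, 126 at day 8 and 149 at day 4, while the untreated means were 1276 at day 8 and 688 at day 4. In HuT78 the gene was close to background, at 6.84, 3.49, 31.2 and 7.53 with cobomarsen and 5.39, 3.40, 6.17 and 3.83 in untreated wells.

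Of the other regulators, ZNF652 was higher in HuT102 and MyLa on both days and in MJ at day 8. HuT102 at day 8 had 799, 902, 747 and 1031 with cobomarsen, against 260.0, 362, 230.0 and 431 in untreated wells, and the log2 change was 1.43 ± 0.16. MyLa at day 8 had 1274, 1261, 1111 and 1132 with cobomarsen, against 689, 641, 499 and 569 in untreated wells (0.98 ± 0.16). MJ at day 8 had 379, 289, 359 and 393 with cobomarsen, against 153, 176, 165 and 149 in untreated wells (1.06 ± 0.16). In MJ at day 4 the groups overlapped, since 1 untreated array at 290.0 lay above 3 treated arrays at 226 to 282. In HuT78 the sign was the other way, with 782, 676, 775 and 736 under cobomarsen and 952, 860.4, 887 and 879.6 in untreated wells, and these groups did not overlap. The log2 change there was -0.27 ± 0.16. Of the other ZNF652 probe sets, 205594_at was also lower without overlap in HuT78 (-0.62). The HuT78 groups overlapped on 243495_s_at (-0.10) and 235577_at (-0.03).

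The RNA-binding protein CARHSP1 was higher with cobomarsen in the same 3 lines, by a log2 change of 1.17 to 1.90. MJ at day 8 had 4421, 4473, 4397 and 5028 with cobomarsen, against 1284, 1314, 1195 and 1230.3 in untreated wells (3.61-fold). MyLa at day 8 had 3918, 4424, 4213 and 4085 with cobomarsen, against 1248, 1742, 1526 and 1370.5 in untreated wells (2.83-fold). HuT102 at day 8 had 3067, 3545, 3232 and 2778 with cobomarsen, against 1234, 1348, 1409 and 1575 in untreated wells (2.25-fold). The groups were apart in each line, and the day 4 changes of 1.90 in MJ, 1.34 in MyLa and 1.31 in HuT102 (SE 0.12) differed from those of day 8 by at most 0.15. In HuT78 cobomarsen arrays held 9153, 13024, 12628 and 12068, against 8651, 8870.3, 8402 and 9813 in untreated arrays. The first cobomarsen array lay within the untreated range and the other 3, the arrays with the low upper quartile, lay above it.

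DAZAP2 was higher by a smaller log2 change than CARHSP1 in each of these comparisons. Its signals in MJ at day 8 were 12774, 11893, 12085 and 13198 with cobomarsen, against 6255, 6491, 6228 and 5790.1 in untreated wells (log2 change 1.01 ± 0.06). Over the 6 comparisons of HuT102, MJ and MyLa its change ran between 0.44 in MyLa at day 4 and 1.01 in MJ at day 8, with no overlap of groups in any of them.

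EEIG2 separated the 3 lines. HuT102 at day 8 had 965, 805, 893 and 1037 with cobomarsen, against 127, 112, 127 and 92.8 in untreated wells. MJ at day 8 had 6828, 6625, 6945 and 7051 with cobomarsen, against 1703, 1766, 1700.4 and 1922 in untreated wells. MyLa at day 8 had 1707, 1670.0, 1651 and 1667 with cobomarsen, against 1657, 1735, 1551 and 1799 in untreated wells. The treated arrays were well above the untreated ones in HuT102 and MJ, whereas in MyLa the treated range lay inside the untreated range. The log2 change was 2.85 ± 0.09 in HuT102 (7.21-fold), 1.94 ± 0.09 in MJ (3.85-fold) and -0.01 ± 0.09 in MyLa. At day 4 it was 2.17 ± 0.09, 1.63 ± 0.09 and 0.26 ± 0.09 in the same order of lines, and in MyLa the groups overlapped on that day too. HuT78 arrays held 995, 925, 948 and 982 with cobomarsen, against 1005, 1105, 1092 and 1047 in untreated wells, slightly lower and with no overlap. A higher EEIG2 was therefore seen in HuT102 and MJ, while the MyLa groups overlapped.

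Of the 2 metabolic genes, GAD1 was higher in all 4 lines at day 8. MJ had 789, 855, 823 and 795 with cobomarsen, against 205, 155, 158 and 157 in untreated wells (4.53-fold). HuT102 had 857, 1082, 893 and 845 with cobomarsen, against 319, 403, 369.8 and 374 in untreated wells (2.44-fold). MyLa had 2599, 2656, 2640.5 and 2688 with cobomarsen, against 1687, 2069.5, 2407 and 1789.9 in untreated wells (1.34-fold). MyLa, the line with the highest untreated level, had the smallest fold of the 3, and the groups did not overlap in any of them. HuT78 had a lower untreated mean, 206, and a smaller fold, 1.27. The untreated level is itself a part of each fold, so no link of level and fold is read from this. HuT78 had 254, 306, 257 and 247 with cobomarsen, against 221, 172, 214 and 219 in untreated wells, a log2 change of 0.34 ± 0.11. With all arrays and the probe set used for each gene, it was the only one of the 10 genes that was higher in HuT78 without overlap. The other GAD1 probe sets overlapped between the HuT78 groups, 206669_at with a log2 change of 0.14 and 205278_at, close to background, with 42.0 ± 19.4 with cobomarsen and 84.9 ± 22.9 in untreated wells (-0.83). The day 8 effect minus the day 4 effect was 0.66 in MJ and 0.43 in HuT102 but -0.27 in MyLa (SE 0.16 each).

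The glycogen primer GYG1 had a narrow range of log2 changes, 0.57 to 0.95, with no overlap in the 6 comparisons of the 3 lines. In MJ at day 8 its signals were 6742, 6589, 6979 and 6828 with cobomarsen, against 3557, 3688, 3522 and 3322 in untreated wells. In HuT102 they were 2679, 2480.5, 2652 and 2551 with cobomarsen, against 1421, 1617, 1422 and 1398 in untreated wells. MyLa had 4848, 5096, 4815 and 4496 with cobomarsen, against 2947, 3485, 3395 and 3154 in untreated wells. The fold was 1.92 in MJ, 1.76 in HuT102 and 1.48 in MyLa.

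SDCBP and TRAM1, of the membrane and secretory routes, were higher in all 6 comparisons. SDCBP in MJ at day 8 had 5003, 5014, 5575 and 5242 with cobomarsen, against 1633, 1802, 1577 and 1571 in untreated wells (3.15-fold). In HuT102 it had 5511, 5679.6, 5710.1 and 4404 with cobomarsen, against 1684, 1523, 1755 and 1937 in untreated wells (3.06-fold). In MyLa it had 7381, 6502, 6773 and 7034 with cobomarsen, against 4022, 3889, 3816 and 4273 in untreated wells (1.73-fold). The MyLa change was the smallest at day 8 and was 0.36 lower than at day 4 on the log2 scale (SE 0.13), when it was 1.15 ± 0.09. TRAM1 had log2 changes of 0.50 to 0.79, and in MJ at day 8 its signals were 6904, 6221, 6725 and 7269 with cobomarsen, against 4079, 4104, 3787 and 3668 in untreated wells. Its treated and untreated arrays were apart in all 6 comparisons. In HuT78 the 2 genes went opposite ways with overlap, SDCBP by -0.21 ± 0.09 and TRAM1 by 0.30 ± 0.08.

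Counted over the 10 genes, 9 were higher and 1 lower without overlap in HuT102 on both days and in MJ at day 8, 8 were higher and 1 lower in MJ at day 4, and 8 were higher and 1 lower in MyLa on both days. Over all genes tested, the share higher without overlap was 19.0% in HuT102 at day 8, 11.7% in HuT102 at day 4, 19.4% in MJ at day 8, 15.2% in MJ at day 4, 22.7% in MyLa at day 8 and 13.0% in MyLa at day 4. The share lower without overlap was 20.8%, 15.5%, 22.9%, 16.4%, 18.1% and 12.6% in the same order. Nothing is read from these counts, since the comparisons chose the genes. Of 9728 genes tested in all 6 comparisons, limma with Benjamini-Hochberg adjustment called 233 higher in all 6 (2.40%) and 94 lower in all 6 (0.966%). The 6 comparisons come from 3 lines, and whether the arrays of both days in a line came from the same cultures is not given in the labels.

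HuT78 gave another picture. There 9 of the 10 genes passed the filter on low signals, ZBED2 being close to background in both groups. GAD1 was higher without overlap, against 4.41% of all genes tested, and EEIG2 and ZNF652 were lower without overlap, against 4.63%. With cobomarsen array 1 alone set against the 4 untreated arrays, a comparison chosen after seeing the data, the log2 changes were 0.29 for GAD1, -0.09 for EEIG2 and -0.19 for ZNF652. The changes of CARHSP1 (0.38), TRAM1 (0.30), GYG1 (0.19) and DAZAP2 (0.18) over all arrays became 0.04, 0.04, -0.06 and 0.05 with that array alone. Without cobomarsen array 1 in turn, 5 genes were higher without overlap, the 4 just named and GAD1, and the count was 2 without cobomarsen array 2 (GAD1 and ZBED2, the second close to background) and 4 without untreated array 4. The log2 change of KLHL5 was -0.08 with all arrays and 0.03 with array 1 alone.

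Several of the genes have more than 1 probe set, 29 in all, and these are separate measurements of partly different stretches of the transcripts. GAD1 (3 probe sets), TRAM1 (3) and GYG1 (2) were higher without overlap in all 6 comparisons on every probe set. Of the 5 probe sets of KLHL5, 227565_at and 232297_at were also higher in 6 of 6 comparisons, by 1.21 to 2.03 and 1.14 to 2.15. The fourth, 220682_s_at, was not: in MyLa at day 8 it held 134, 114, 113 and 128 with cobomarsen, against 198, 221, 188 and 136 in untreated wells, and its 6 changes ran between -0.53 and 0.21. The fifth, 233866_at, was close to background in all 6 comparisons. The 3 probe sets that were higher and the one that was not thus disagree within the same arrays. Which transcript forms each one detects was not analysed here.

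For ZNF652, 243495_s_at was higher in 6 of 6 comparisons, 205594_at in 4 and 235577_at in 3. For CARHSP1, 224910_at was higher in 4 of 6 by at most 1.08, and the other 2 probe sets stayed near background in 5 and 6 of the 6 comparisons. DAZAP2 had a probe set, 214334_x_at, that was higher without overlap in 4 comparisons but held 4314, 4009, 4129.8 and 4099 with cobomarsen in MyLa at day 8, against 5989, 9198, 8842 and 9046 in untreated wells. That is a change of -0.98, opposite to the 0.53 of the probe set used for the gene. The ending _x_at, which 200794_x_at, the probe set used for the gene, also has, marks a probe set whose probes may also bind other transcripts. DAZAP2 probe set 235704_at, close to background, was lower without overlap in MJ (-0.66) and MyLa (-0.85) at day 8. ZBED2, EEIG2 and SDCBP were measured by 1 probe set each, so no second measurement of them exists here.

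**Figure D3:**
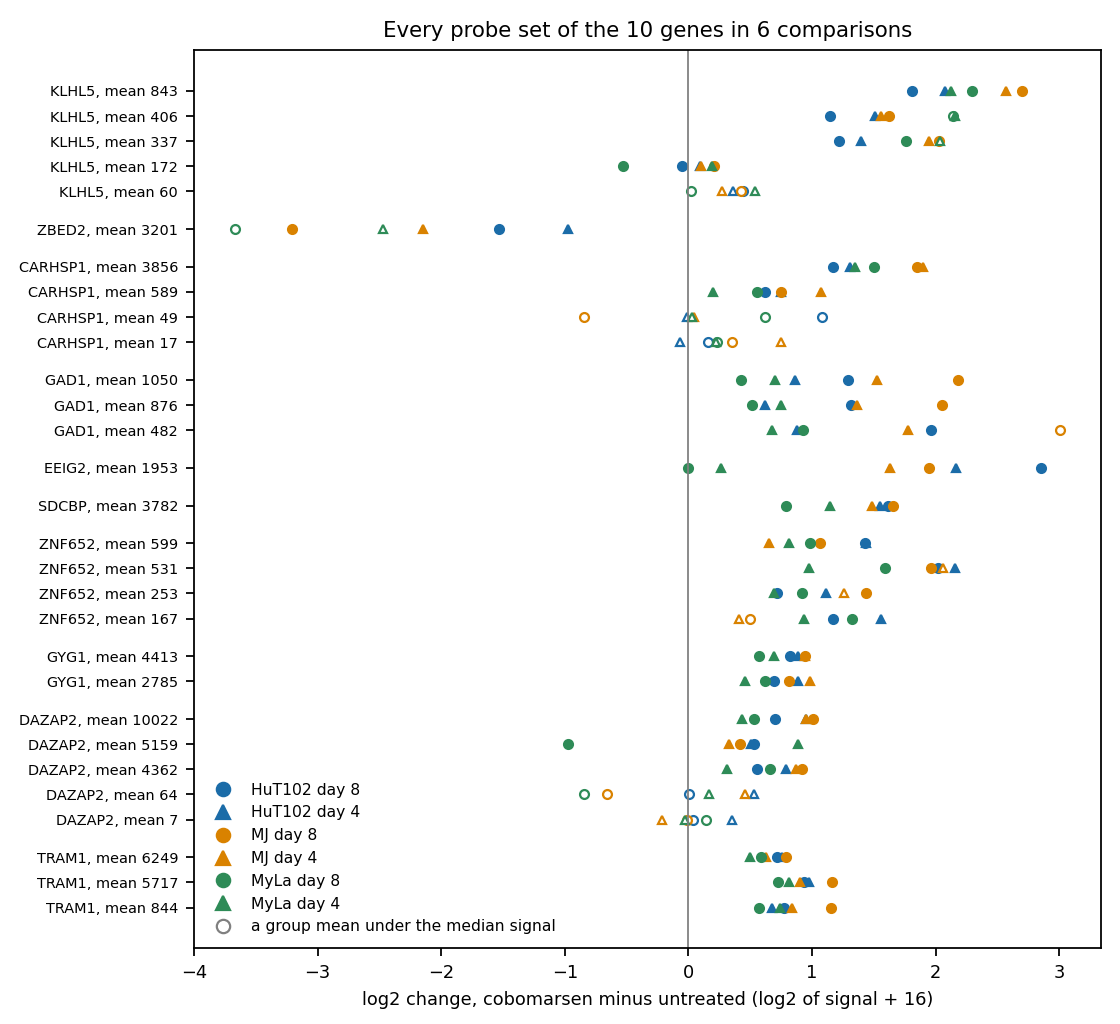
Each point is the log2 change, cobomarsen minus untreated, of 1 probe set in 1 of the 6 comparisons of HuT102, MJ and MyLa; probe sets are grouped by gene and named by their mean signal over 56 arrays, and open symbols have a group mean under 74.0. The 3 brightest KLHL5 probe sets lie between 1.14 and 2.70 while the fourth lies between -0.53 and 0.21.

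Differences between untreated lines were not the quantity that chose the genes, but the untreated arrays are one side of the comparisons that did, so the tests of the 10 genes between lines are not independent of the choice and support nothing beyond the levels. At day 8, the only day that all lines share, all 10 genes differed between the 4 untreated lines in limma's moderated F-test, with adjusted p-values between 9.28e-41 for EEIG2 and 1.20e-12 for TRAM1, against 91.1% of all genes tested. So a difference between lines is the rule for genes on these arrays. Of 60 pairs of a gene and 2 lines, 48 were called, and of the 30 pairs of lines next to each other in the order of levels, 20 were called. Over all genes tested, the shares called higher and lower were 24.6% and 33.2% in HuT102 against MJ, 33.5% and 35.7% in HuT102 against MyLa, and 33.9% and 39.9% in HuT102 against HuT78. They were 35.3% and 30.4% in MJ against MyLa, 35.1% and 34.2% in MJ against HuT78, and 35.5% and 39.4% in MyLa against HuT78. The sample numbers in the labels fall in 2 ranges, one with HuT102 and MJ and one with MyLa and HuT78, so a line and its range cannot be told apart except within those pairs.

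On the probe set used for each gene, HuT78 was the line with the highest untreated level of KLHL5, CARHSP1, ZNF652, GYG1 and DAZAP2. The share of all genes that were highest in HuT78 was not counted. Low untreated signals in the other lines are also one side of the comparisons that chose the genes, so nothing is read from this ranking. KLHL5 averaged 2252 ± 200.5 in HuT78, 213 ± 21.9 in MJ, 188 ± 36.2 in HuT102 and 165 ± 26.1 in MyLa (SD, n = 4 each). HuT78 exceeded MJ by 9.89-fold (log2 3.31 ± 0.14, limma adjusted p = 7.58e-28). MJ and HuT102 (limma adjusted p = 0.256) and HuT102 and MyLa (0.298) did not differ beyond their spread. MJ was called above MyLa (log2 0.35 ± 0.14, limma adjusted p = 0.0236). On KLHL5 probe set 220682_s_at HuT78 was lowest, with untreated means of 138 in HuT78, 197 in MJ, 157 in HuT102 and 186 in MyLa. On 227565_at and 232297_at HuT78 was highest, at 816 and 1146. CARHSP1 averaged 8934 ± 616 in HuT78, 1472 ± 213 in MyLa, 1392 ± 142 in HuT102 and 1256 ± 53.1 in MJ, and HuT78 exceeded MyLa by 6.05-fold (limma adjusted p = 1.56e-26). The 3 lower lines did not differ beyond their spread (limma adjusted p between 0.0982 and 0.585).

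GYG1 averaged 6121 ± 199 in HuT78 and 3522 ± 151 in MJ, a 1.73-fold difference (limma adjusted p = 1.15e-14), then 3246 ± 243 in MyLa, which did not differ from MJ beyond the spread (0.131), and 1464 ± 102.3 in HuT102. ZNF652 averaged 895 ± 40.0 in HuT78, 599.8 ± 83.2 in MyLa, 321 ± 92.6 in HuT102 and 161 ± 12.2 in MJ, and each step of that order was called (limma adjusted p at most 0.00124). DAZAP2 was also highest in HuT78, at 10738 ± 522 against 8091 ± 306 in MyLa, with the next neighbours MyLa and HuT102 not called apart (0.182). DAZAP2 probe set 214334_x_at had the opposite order, with untreated means of 6215 in HuT78 and 8269 in MyLa. On 212595_s_at they were 4028 in HuT78 and 3338 in MyLa. On the probe sets used for these genes, the treated levels of CARHSP1 and KLHL5 in HuT102, MJ and MyLa remained below the untreated level in HuT78. The treated mean of GYG1 in MJ at day 8, 6785, and that of DAZAP2, 12488, lay above the untreated HuT78 means of 6121 and 10738.

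**Figure D4:**
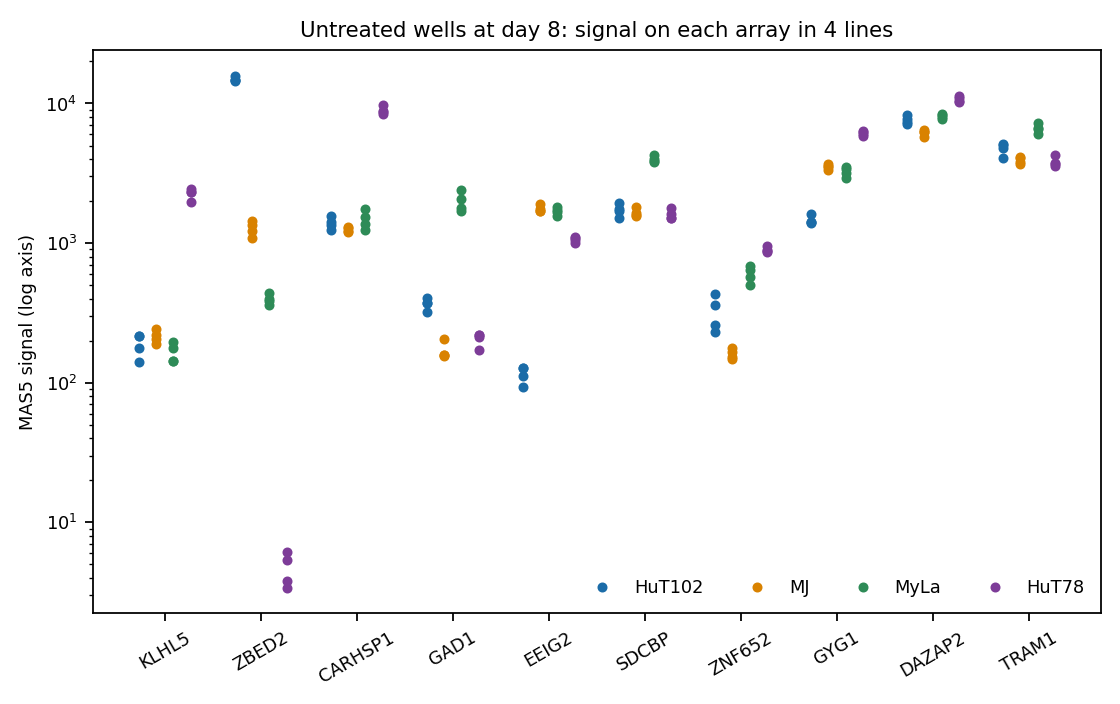
Points are the MAS5 signal of the 4 untreated day 8 arrays of each line, on a log axis, for each of the 10 genes; levels of different genes are not comparable. KLHL5 and CARHSP1 stand apart in HuT78, ZBED2 spans from 14963 in HuT102 to 4.70 in HuT78, and EEIG2 is lowest in HuT102.

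MyLa was the line with the highest untreated GAD1, SDCBP and TRAM1. GAD1 averaged 1988 ± 323 in MyLa, 366 ± 34.9 in HuT102, 206 ± 23.1 in HuT78 and 169 ± 24.5 in MJ, with MyLa 5.21-fold above HuT102 (limma adjusted p = 4.46e-25). SDCBP averaged 4000.1 ± 201 in MyLa, 2.31-fold above HuT102 (limma adjusted p = 2.59e-17), while HuT102, MJ and HuT78 lay between 1603 and 1725 and did not differ beyond their spread. TRAM1 averaged 6626 ± 491 in MyLa, 4758 ± 475 in HuT102, 3909.5 ± 216 in MJ and 3816 ± 313 in HuT78, of which only MJ and HuT78 were not called apart (limma adjusted p = 0.711). MyLa exceeded HuT78 in TRAM1 by 1.73-fold (limma adjusted p = 3.45e-12). The place of HuT78 in this order depends on the probe set. On TRAM1 probe set 201398_s_at the untreated means were 5528 in MyLa, 4962 in HuT78, 3888 in HuT102 and 2775 in MJ. On 210733_at they were 864, 515, 676 and 457 in the same order of lines.

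EEIG2 averaged 1773 ± 104 in MJ and 1685 ± 107 in MyLa, which were not called apart (limma adjusted p = 0.488), then 1062 ± 45.6 in HuT78 and 115 ± 16.4 in HuT102. HuT78 exceeded HuT102 by 8.29-fold (limma adjusted p = 7.07e-35), so HuT102, the line with the largest EEIG2 change under cobomarsen, started from the lowest level. MJ and MyLa started from similar levels, with day 8 changes of 1.94 and -0.01. The untreated level is itself a part of each change, so no link of level and change is read from this. ZBED2 averaged 14963 ± 589 in HuT102, 1276 ± 158 in MJ and 396 ± 33.9 in MyLa. HuT102 exceeded MJ by 11.7-fold (limma adjusted p = 3.88e-20) and MJ exceeded MyLa by 3.13-fold (4.29e-09). In HuT78 it averaged 4.70 ± 1.30, close to background.

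Changes with time in culture without cobomarsen were called for few of the genes. The untreated arrays of both days are one side of the 6 comparisons that chose the genes, and a high untreated signal of ZBED2 at day 8 itself enlarges its difference from cobomarsen, so these day tests are not independent of the choice either. In HuT102, DAZAP2 rose at day 8, with signals of 7395, 7174, 7688 and 8237, against 6242, 6594, 7136 and 6030.4 at day 4 (log2 0.23 ± 0.06, limma adjusted p = 0.00640). That is 1 gene higher of 10, against 4.59% of all genes tested called higher and 4.13% called lower. In MJ, ZBED2 rose at day 8, with 1439.8, 1224, 1359 and 1080.0, against 748, 696, 673 and 635 at day 4 (log2 0.87 ± 0.22, limma adjusted p = 0.0225), 1 of 10 against 1.19% higher and 0.491% lower. In MyLa, GYG1 fell at day 8, with 2947, 3485, 3395 and 3154, against 3998, 4164, 3979 and 3784 at day 4 (log2 -0.30 ± 0.07, limma adjusted p = 0.00281), 1 of 10 against 6.46% lower and 6.61% higher. The arrays of the 2 days did not overlap in any of these 3 cases.

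The calls of DAZAP2 and ZBED2 were lost when some single arrays were left out. The adjusted p of DAZAP2 was 0.0545 without untreated HuT102 day 8 array 4. That of ZBED2 ran from 0.0581 to 0.0929 without any one of untreated MJ day 8 arrays 1 or 3 or day 4 arrays 2 or 4, and was 0.376 on the log2(signal + 1) scale. The ZBED2 change itself stayed between 0.81 and 0.88 without those arrays, and its call held in the fit to only the arrays compared. Its SE pools groups close to background in other lines, and the part of that in the lost calls was not tested. The change of ZBED2 between untreated days was 0.06 in HuT102 and 0.03 in MyLa, and the F-test of its difference between the 3 lines gave an adjusted p of 0.0784. That F-test called DAZAP2 (limma adjusted p = 0.00337) and CARHSP1 (0.0497), 2 of 10 genes against 14.2% of all genes tested. CARHSP1 averaged 1392 ± 142 at day 8 and 1185 ± 147 at day 4 in HuT102, and 1256 ± 53.1 at day 8 and 1550.0 ± 185 at day 4 in MJ. Its call was lost on leaving out any one of 17 of the 24 arrays, with an adjusted p of 0.0516 to 0.143. The untreated differences of KLHL5 between days were -0.15 to -0.01, with no call.

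**Figure D5:**
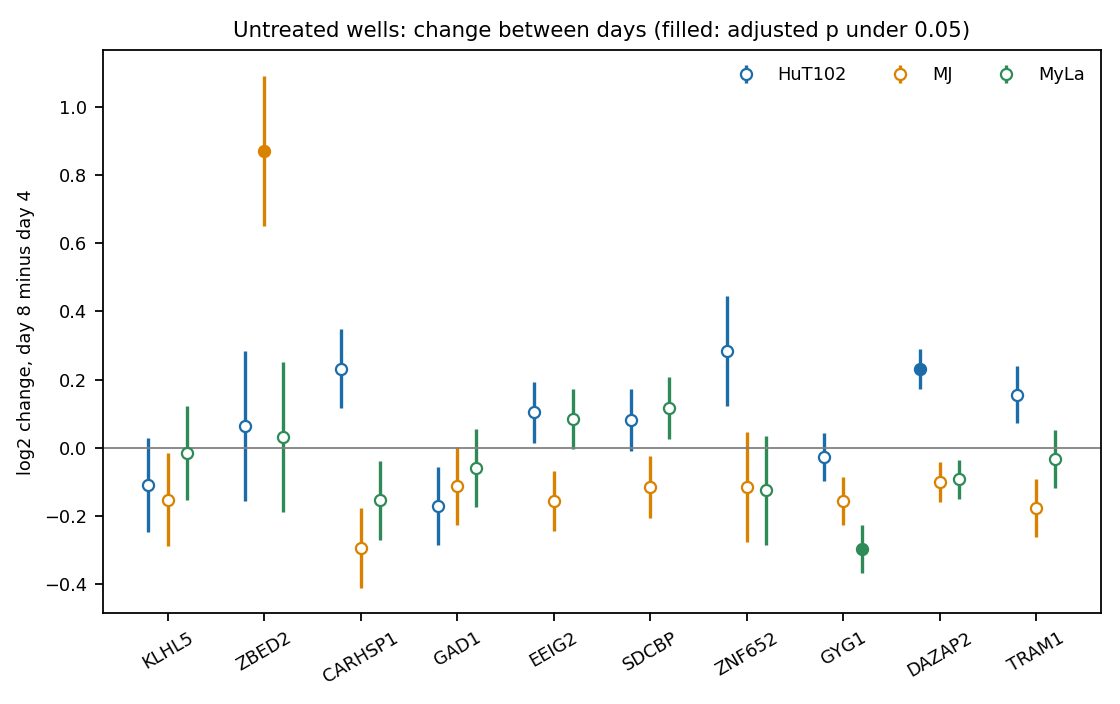
Points are log2 changes, day 8 minus day 4, in untreated wells of HuT102, MJ and MyLa, with standard errors, from 4 arrays a group; filled points have a limma adjusted p under 0.05. The filled points are DAZAP2 in HuT102 (0.23), ZBED2 in MJ (0.87) and GYG1 in MyLa (-0.30).

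The promoters of KLHL5, whose change in its weakest comparison exceeded that of the other 8 higher genes, and of ZBED2, the one lower gene in HuT102, MJ and MyLa, are shown for their base composition. Each is the 250 bases before a RefSeq start of the gene on GRCh38.p14, and whether these genes have other starts was not analysed here. The bases are written 5′ to 3′ on the strand of the gene, in lower case, and capitals mark motif matches. KLHL5 is at chr4:39061982-39062231, plus strand. ZBED2 is at chr3:111595347-111595596, minus strand.
KLHL5: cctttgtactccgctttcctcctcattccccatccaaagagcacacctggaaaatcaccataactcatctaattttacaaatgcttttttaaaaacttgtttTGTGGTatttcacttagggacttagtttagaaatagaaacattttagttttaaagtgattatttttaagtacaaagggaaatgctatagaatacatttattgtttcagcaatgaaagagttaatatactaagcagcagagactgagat
ZBED2: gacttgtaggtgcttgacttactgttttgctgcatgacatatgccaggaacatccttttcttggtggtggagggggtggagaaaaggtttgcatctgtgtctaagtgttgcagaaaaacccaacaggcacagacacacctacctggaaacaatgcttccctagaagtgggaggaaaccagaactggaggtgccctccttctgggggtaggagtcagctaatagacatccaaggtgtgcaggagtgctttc
The KLHL5 window holds 1 CpG and its ratio of observed to expected CpG is 0.157, and the ZBED2 window holds none. The median ratio over all 35116 promoter windows was 0.558, and 22.8% of windows were under 0.2. Of the 8 genes with a window in the table, CARHSP1, with 5 start sites, ranged between 0.132 and 0.907 and the windows of GAD1, EEIG2, ZNF652, GYG1 and DAZAP2 between 0.890 and 1.07. SDCBP and TRAM1 had no window there.

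The capitals in the KLHL5 window mark a RUNX motif (TGTGGT), which 11.0% of all windows hold on either strand. The motifs and the limit of 0.2 were chosen after these sequences had been seen, so a match is a description. Also searched on both strands were the AP-1 motif TGANTCA (6.57% of windows), the E-box CACGTG (6.34%), the TATA box TATAAA (10.7%) and the CRE TGACGTCA (1.65%). GYG1 held the E-box and GAD1 the TATA box, and the windows of the other genes held none of the 5.

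Relatives and partners of the 10 genes were followed in 9 lists by function, 172 genes of which 152 were measured. In HuT102 at day 8, limma called 29 higher and 30 lower of 124 tested, against 19.1% and 21.3% of all genes tested. In MJ at day 8 it called 24 higher and 27 lower of 122 (all genes 15.3% and 18.7%), and in MyLa 30 higher and 28 lower of 113 (23.6% and 18.4%). At day 4 the calls were 19 higher and 20 lower of 124 in HuT102 (10.1% and 13.1%), 25 and 26 of 122 in MJ (13.2% and 14.3%), and 18 and 14 of 115 in MyLa (13.4% and 12.9%). The median change of the related genes lay between -0.03 and 0.04 in these 6 comparisons, and that of all genes tested between -0.03 and 0.02. The relatives were called both ways in similar numbers, and the counts of each list are to be read against these shares of all genes.

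Among 44 measured kelch-like proteins and cullin 3, 8 rose and 8 fell of 36 tested in HuT102 at day 8 (all genes 19.1% and 21.3%), 5 and 8 of 34 in MJ (15.3% and 18.7%), and 8 and 9 of 32 in MyLa (23.6% and 18.4%). KLHL42 was called higher in all 6 comparisons, and in MJ at day 8 it averaged 2235 ± 105 with cobomarsen and 681 ± 117 in untreated wells (log2 1.70 ± 0.11, limma adjusted p = 1.64e-18). KBTBD2, another BTB-kelch protein, was called higher in all 6, by up to 0.83, and KLHL12 was called lower in all 6, by 0.21 to 0.45. ENC1 went both ways at day 8. It rose in HuT102 (log2 1.51 ± 0.27, limma adjusted p = 6.87e-06) and fell in MJ (-1.02 ± 0.27, limma adjusted p = 0.00222). The counts lie near the shares of all genes, so nothing particular to the family is read from them.

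Of the GABA list, 3 rose and 1 fell of 5 tested in HuT102 at day 8, 3 rose of 5 in MJ, and 1 rose and 1 fell of 4 in MyLa. These counts take in GABARAP, a GABA receptor-associated protein, and GLUL, the glutamine synthetase, which do not make, break down or carry GABA. GABARAP was among the 3 that rose in HuT102 at day 8 (log2 0.42). ABAT, the transaminase that breaks GABA down, averaged 3910.2 ± 323 with cobomarsen and 876 ± 42.2 in untreated HuT102 wells at day 8 (log2 2.14 ± 0.16, limma adjusted p = 2.70e-16). In MyLa at day 8 it averaged 586 ± 49.1 with cobomarsen and 996 ± 173 in untreated wells (-0.74 ± 0.16, limma adjusted p = 1.46e-04). In MJ at day 8 its mean signal was 356 with cobomarsen and 61.1, close to background, in untreated wells. ALDH5A1, the next enzyme of GABA breakdown, was called higher in 5 of 6 comparisons and averaged 2708 ± 270.0 with cobomarsen and 1137 ± 85.1 in untreated HuT102 wells at day 8. In HuT78 it was lower (-0.24 ± 0.09, limma adjusted p = 0.0356).

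In the glycogen list, 4 rose and 4 fell of 16 tested in HuT102 at day 8, 5 rose and 2 fell of 15 in MJ, and 4 rose and 3 fell of 15 in MyLa. PHKB, a regulatory subunit of phosphorylase kinase, was called higher in all 6 comparisons (log2 0.42 to 0.995). In MyLa at day 8 it averaged 665 ± 45.1 with cobomarsen and 325 ± 12.4 in untreated wells (limma adjusted p = 1.06e-09). GBE1, the branching enzyme, was called higher in 5 comparisons and lower in MyLa at day 8, where it averaged 21218 ± 924 with cobomarsen and 26932 ± 1849 in untreated wells (-0.34 ± 0.08, limma adjusted p = 3.74e-04). GYG1 itself was higher in MyLa on that day.

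Of the syntenin, syndecan and exosome list, 5 rose and 6 fell of 20 tested in HuT102 at day 8, 7 and 5 of 21 in MJ, and 5 and 3 of 19 in MyLa. Its member SDC4, a syndecan that binds syntenin, was called higher in 5 of 6 comparisons, and in HuT102 at day 8 it averaged 2229.8 ± 523 with cobomarsen and 1026 ± 110.4 in untreated wells (log2 1.09 ± 0.13, limma adjusted p = 4.23e-10). CD9, also of this list, was called higher in 2 and lower in 2 of the 4 comparisons that tested it. Its log2 changes ran from -2.88 to 2.55 over all 6. Of the endoplasmic reticulum translocon and signal recognition particle, 3 rose and 7 fell of 24 in HuT102 at day 8, 3 and 6 in MJ, and 6 and 8 in MyLa. TRAM2, the paralogue of TRAM1, rose in MyLa at day 8, where it averaged 1702 ± 84.5 with cobomarsen and 1006 ± 138 in untreated wells (limma adjusted p = 1.30e-06). SSR3, a translocon-associated protein, fell in MyLa at day 8 (log2 -0.42 ± 0.09, limma adjusted p = 5.44e-05).

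At day 4, 3 translocon genes were called higher and 11 lower of 24 in MJ (all genes 13.2% and 14.3%). Their median change there was -0.16, against 0.0022 over all genes. The day 4 calls were 3 higher and 4 lower in HuT102, and 2 higher and 2 lower in MyLa. In HuT78, by contrast, 11 of 24 translocon genes were called higher and 0 lower, with a median change of 0.15, against -0.05 over all genes. With cobomarsen array 1 alone, which leaves out the 3 arrays with the low upper quartile, the median of the 24 was 0.0019, against 0.0059 over all genes. These calls rest on the spread pooled over all lines. Of 117 related genes tested, 17 were called higher and 11 lower in the model over all arrays, and limma fitted to the 8 HuT78 arrays alone called 0 and 0, with 29 at an unadjusted p under 0.05. Over all 10959 genes that smaller fit called 1, with 2571 at an unadjusted p under 0.05. The background of the model over all arrays was 10.6% called higher and 11.3% called lower.

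Among ZBED genes and interferon regulatory factors, 3 rose and 3 fell of 12 tested in HuT102 at day 8, 4 fell of 11 in MJ, and 4 rose and 2 fell of 9 in MyLa. IRF9, a subunit of the interferon-induced complex ISGF3, was called lower in 5 of 6 comparisons, and in HuT102 at day 8 it averaged 2834 ± 238 with cobomarsen and 4157 ± 358 in untreated wells (log2 -0.55 ± 0.08, limma adjusted p = 9.25e-08). Of the corepressors of ZNF652 and related zinc fingers, 2 rose and 1 fell of 8 in HuT102 at day 8, 1 rose of 8 in MJ, and 2 rose and 1 fell of 7 in MyLa, and SIN3A, a corepressor scaffold, was called higher in 5 of 6 comparisons. Of the cold-shock proteins, few were tested, 2 to 4 in each comparison, and YBX3 was called lower in 4 of the 6. EEIG1, the paralogue of EEIG2, rose in HuT102 at day 8 (0.64 ± 0.17, limma adjusted p = 0.00182) and fell in MJ (-1.08 ± 0.17, limma adjusted p = 8.73e-07), while EEIG2 was higher in both lines.

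Over the 14 group means, the genes most like KLHL5 among 11674 compared were CSNK1G2 (Pearson r of log2 means 0.979), ARFIP1 (0.972) and CUX1 (0.958). CARHSP1 and KLHL5 correlated at 0.96 over the same 14 means, and CARHSP1 was most like ARFIP1 (0.958), NORAD (0.956) and EID2 (0.954). Those of ZBED2 were STMP1 (0.972), SDHAF4 (0.971) and MLLT11 (0.959), and ZBED2 ran opposite to GYG1 (-0.90). GYG1 was most like MYB (0.971), CTTNBP2NL (0.970) and AKR7A2 (0.962). The 14 means share lines, so these values mostly follow differences between 4 lines and are a description.

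With the probe set used for each gene, SDCBP and TRAM1 correlated at 0.96, and GAD1 and TRAM1 at 0.90. SDCBP was most like ZNF518B (0.936), SNX29 (0.926) and SDCBPP2 (0.922), of which the last is a pseudogene of SDCBP that may bind the same message. TRAM1 was most like TAOK1 (0.920), RFX5-AS1 (0.915) and SNX29 (0.912), and GAD1 most like CRAT (0.968), ATXN1 (0.964) and DIPK1A (0.962). EEIG2 was most like CACNB2 (0.960), PDE7A (0.954) and MTM1 (0.945), ZNF652 like ZHX2 (0.940), NR1D2 (0.926) and SLC46A3 (0.918), and DAZAP2 like DET1 (0.954), STX6 (0.932) and ARID2 (0.931). The 10 genes thus did not form 1 pattern over the groups: KLHL5 and GAD1 correlated at -0.06.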

How the data were processed

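Each of 56 RNA samples of 4 CTCL lines was hybridised to 1 Affymetrix array, and the labels' line, day and treatment set the groups. The authors' deposited values are MAS5 signal, a linear intensity, per the submitters' processing notes. Trimmed of 2% at each end, every array had a mean of 500.1. The table held 54675 probe sets. Only the 41091 that carried a single gene symbol were used, which left out 62 controls, 1801 probe sets with several symbols and 11721 without one. Each of 19775 genes was represented by its brightest probe set on average.

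Group means of log2(signal + 16) were fitted with limma 3.58.1 (R 4.3.3) in 1 model over all arrays, with 42 residual degrees of freedom and an intensity trend. A gene was tested where its mean over the groups compared reached log2 6.49, the median signal plus 16 on the log2 scale. P-values, two-sided, were adjusted by Benjamini-Hochberg within each comparison across all genes tested and called at 0.05. Python 3.11.15 with NumPy 2.4.6, pandas 2.3.3 and SciPy 1.17.1 made the tables, and Matplotlib 3.10.9 the figures. The steps were tested on simulated data. Precision is limited by the number of arrays and by how far a signal lies over background.

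The 10 genes and the lists of relatives were chosen with earlier results of these data known. Named were all 10 genes with every probe set, and for each of the 10 the 3 most correlated genes over the group means. From each list and comparison, up to 2 called genes that rose most and up to 2 that fell most were drawn. The text names only some of these. Many of the relatives it names were called the same way in most comparisons, so they do not stand for their lists. Alternatives were log2(signal + 1) and log2(signal + 64), a filter at the 75th percentile or none, quantile normalization, each probe set on its own, a fit to the compared arrays only, no intensity trend, and leaving out each array. HuT78 cobomarsen array 1 alone was added after seeing the data.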

Additional observations from a re-analysis of the deposited data

Results flagged for a closer look

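In 10 of 140 groups of 4 arrays, 1 array lay far from the other 3 by Dixon's criterion, which flags about 1 in 20 groups by chance. KLHL5 had 166 on 1 untreated HuT102 array at day 4, against 211 to 217 on the others, and 1586 on 1 HuT78 cobomarsen array, against 2299 to 2391. ZBED2 had 31.2 on that HuT78 array, against 3.49 to 7.53, all close to background. CARHSP1 had 5028 on 1 cobomarsen array of MJ at day 8, against 4397 to 4473. GAD1 had 863 on 1 cobomarsen array of HuT102 at day 4 (others 719 to 741), 205 on 1 untreated array of MJ at day 8 (others 155 to 158) and 172 on 1 untreated HuT78 array (others 214 to 221). SDCBP had 4404 on 1 cobomarsen array of HuT102 at day 8 (others 5511 to 5710.1) and 5269 on 1 cobomarsen array of MJ at day 4 (others 4928 to 4958). GYG1 had 1617 on 1 untreated array of HuT102 at day 8, against 1398 to 1422 on the others.

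The change of 2 genes between untreated days differed between HuT102, MJ and MyLa in limma's F-test, DAZAP2 with an adjusted p of 0.00337 and CARHSP1 with 0.0497. For 2 genes the lines went opposite ways with cobomarsen at day 8, and the difference was not tested. EEIG2 was higher on every treated array in HuT102 and MJ and lower on every treated array in HuT78, by a log2 change of -0.14 ± 0.09 (SE). ZNF652 was higher on every treated array in HuT102, MJ and MyLa and lower on every treated array in HuT78, by -0.27 ± 0.16. Of its other probe sets in HuT78, 205594_at was also lower without overlap (-0.62). The HuT78 groups overlapped on 243495_s_at (-0.10) and 235577_at (-0.03).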

How the results depend on the processing

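The F-test over untreated lines called 10 genes under all alternatives run except the 75th percentile filter, which tested fewer. Other results moved as follows, and the cause was not tested unless fewer arrays or genes show it. With each probe set on its own, counted as genes with at least 1 such probe set, the untreated day calls were 2 higher in HuT102 (1 as reported), and 1 higher and 2 lower in MyLa (0 and 1). Then 2 genes in MJ and 3 in MyLa at day 8 were lower without overlap (1 each), 23 related genes were lower in MyLa at day 4 (14) and 1 gene differed in the day F-test (2). With log2(signal + 1), the higher call in MJ became 0, at ZBED2's adjusted p of 0.376, and 1 gene differed in the day F-test, as also without a filter and without the trend. Quantile normalization left 1 gene lower without overlap in HuT78 (2) and 11 related genes higher (17). The 75th percentile filter left 7 related genes lower in HuT78 (11). The HuT78 arrays alone left 0 related genes higher and 0 lower in limma. In that fit 29 of 117 related genes and 2571 of all 10959 had an unadjusted p under 0.05. Other probe sets turned the sign of KLHL5 (-0.053 in HuT102 and -0.53 in MyLa at day 8), DAZAP2 (-0.98 in MyLa at day 8), and CARHSP1 (-0.19) and TRAM1 (-0.072) in HuT78, among probe sets over the filter. The KLHL5 change in HuT78, near 0 and not called, also turned. Under the filter, some probe sets of CARHSP1, DAZAP2 and GAD1 ran opposite too, such as DAZAP2 235704_at (-0.66 in MJ, -0.85 in MyLa at day 8) and GAD1 205278_at (-0.83 in HuT78). HuT78 array 1 alone turned GYG1 (-0.060). Leaving out each array, the untreated day calls ran from 0 to 1 higher in HuT102 and in MJ, the day F-test from 1 to 2, and genes higher without overlap from 8 to 9 in MJ and in MyLa at day 4 and from 1 to 5 in HuT78 (5 without cobomarsen array 1, 2 without cobomarsen array 2, 4 without untreated array 4). No paired analysis was possible because the labels give no replicate numbers that groups share.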
